A study of Mus musculus with 12 samples.

Results

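The 71 genes described here belong to 9 families of developmental transcription factors outside the Hox clusters. They are the rows of the deposited expression table whose gene name is a family name followed by a number (such as *Pax6*, *Lhx8*, *Six4*, *Tbx1*, *Gata4*, *Dlx1*, *Irx2* and *Msx1*), or by a pair of numbers in the Nkx family (such as *Nkx1-2*), and they were taken by name alone from 55385 genes. The families hold 6 Dlx, 6 Gata, 6 Irx, 8 Lhx, 3 Msx, 14 Nkx, 9 Pax, 6 sine oculis (such as *Six4*) and 13 Tbx genes, all annotated as protein-coding. RNA-seq was performed on 12 libraries of sorted mouse spermatogonia, in 6 groups of 2, and the values are TPM, a share of each library's transcripts scaled by transcript length.

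WT undifferentiated spermatogonia (Aundiff) were sorted from adult C57BL/6 mice of 2 to 3 months as E-Cadherin+ CD9 high KIT- cells, and WT differentiating spermatogonia (Adiff) as E-Cadherin+ CD9 medium KIT+ cells. Mice labelled PRC1cKO are Ring1-/-; Rnf2 F/-; Ddx4-Cre, in which Cre is driven by the germ cell gene Ddx4. Their littermates labelled PRC1ctrl are Ring1-/-; Rnf2 F/+; Ddx4-Cre, so that the controls also lack Ring1 and carry Cre, with the strain given as C57BL/6 X FVB/NJ. Aundiff of both labels were collected at 2 months (2 mo), and also from mice that had received Win18446, an inhibitor of retinoic acid synthesis, from 1 month of age in about 30 daily injections of 50 µl at 40 µg/µl in DMSO, with sampling 24 h after the last one. The 2 mo libraries were made with a low-input kit that does not mark strand and the other 8 with a stranded mRNA kit, so that treatment and kit cannot be told apart. WT mice also differ from the PRC1 mice in strain, *Ring1* and Cre. Where WT levels stand beside those of PRC1 mice, these and the treatment or kit cannot be told apart either. Each library is a separate pool of sorted cells. With 2 libraries in a group, an exact permutation test cannot reach 0.05, and the tests below rest on a spread shared across genes.

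*Ring1* stood at 8.61 to 19.9 TPM in the 4 WT libraries and at 0.03 to 0.25 TPM in all 8 libraries of the PRC1 mice. *Rnf2*, which encodes the other catalytic subunit of PRC1, was at 28.3 and 47.6 TPM in the PRC1ctrl libraries at 2 mo and at 56.7 and 67.5 TPM in those labelled PRC1cKO. After Win18446 it was at 78.1 and 67.2 TPM in PRC1ctrl and at 86.2 and 93.1 TPM in the libraries labelled PRC1cKO. *Rnf2* TPM was thus not lower under the label PRC1cKO, and a TPM of the whole gene does not separate transcripts with and without the floxed exons. The groups are named by their labels throughout.

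Transcription factors of these families bind DNA through a homeodomain (Dlx, Irx, Msx, Nkx, sine oculis and, beside LIM domains, Lhx), a paired domain (Pax), a pair of zinc fingers (Gata) or a T-box (Tbx), and they specify organs and cell types in the embryo. In many tissues that do not use them, their genes carry marks of the Polycomb repressive complexes: PRC1 monoubiquitinates histone H2A and PRC2 methylates histone H3 at lysine 27. In germ cells as well, many of these genes are known Polycomb targets.

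The start sites of the members were examined for CG dinucleotides, a sequence feature linked to Polycomb recruitment in mammals. RefSeq windows of 300 bases on GRCm38.p6, from 250 bases before a start site to 50 after it, were matched for 51 of the 71 members, with the most upstream start taken where a gene had several. The windows of members held a median of 17 CG dinucleotides (range 1 to 40), against 13 for 17491 protein-coding genes. The observed number of CG over the number expected from the base composition had a median of 0.689 in members and 0.577 in all genes. It was at 0.6 or above in 64.7% of member windows and in 48.4% of all windows. The share was 66.7% for the 18 matched members that stayed under 1 TPM in all libraries and 63.6% for the 33 others. The 250 bases before the start are shown for 5 of the 6 members that were called after Win18446, to set the members that rose beside those that fell, with every CG in capitals, 5′ to 3′ on the strand of the gene. The first 3, *Tbx1* (chr16:18590672-18590921, minus strand), *Pax8* (chr2:24475600-24475849, minus strand) and *Irx4* (chr13:73260247-73260496, plus strand), rose there. *Six4* (chr12:73113426-73113675, minus strand) and *Irx2* (chr13:72628570-72628819, plus strand) fell.
Tbx1: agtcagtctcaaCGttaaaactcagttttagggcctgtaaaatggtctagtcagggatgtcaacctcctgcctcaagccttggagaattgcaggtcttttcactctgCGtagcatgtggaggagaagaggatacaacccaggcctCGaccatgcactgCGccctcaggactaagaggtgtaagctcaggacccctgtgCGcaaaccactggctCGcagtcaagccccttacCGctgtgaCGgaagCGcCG
Pax8: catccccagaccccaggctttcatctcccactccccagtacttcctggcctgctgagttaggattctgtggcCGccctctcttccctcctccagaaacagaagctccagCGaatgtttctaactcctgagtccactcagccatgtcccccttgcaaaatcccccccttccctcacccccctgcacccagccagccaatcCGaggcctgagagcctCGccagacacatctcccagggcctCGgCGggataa
Irx4: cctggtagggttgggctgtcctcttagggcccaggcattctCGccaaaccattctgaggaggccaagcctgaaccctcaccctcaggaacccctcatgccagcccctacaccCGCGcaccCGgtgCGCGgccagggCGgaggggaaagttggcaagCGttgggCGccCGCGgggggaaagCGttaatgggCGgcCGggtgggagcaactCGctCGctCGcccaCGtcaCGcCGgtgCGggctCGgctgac
Six4: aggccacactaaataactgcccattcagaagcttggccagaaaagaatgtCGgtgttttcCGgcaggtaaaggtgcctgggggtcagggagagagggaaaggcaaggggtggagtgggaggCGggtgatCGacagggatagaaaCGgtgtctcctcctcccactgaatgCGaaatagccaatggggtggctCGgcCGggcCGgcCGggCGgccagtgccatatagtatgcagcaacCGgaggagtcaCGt
Irx2: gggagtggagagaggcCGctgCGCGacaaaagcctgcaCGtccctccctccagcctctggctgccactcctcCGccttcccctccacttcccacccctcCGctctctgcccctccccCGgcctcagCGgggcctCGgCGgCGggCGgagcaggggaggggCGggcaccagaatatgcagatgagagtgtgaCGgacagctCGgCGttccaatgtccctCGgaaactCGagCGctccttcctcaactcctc
The number of CG in these 250 bases was 10 for *Tbx1*, 6 for *Pax8*, 22 for *Irx4*, 13 for *Six4* and 19 for *Irx2*. Of the 3 shown that rose, *Pax8* had the fewest.

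**Figure D1:**
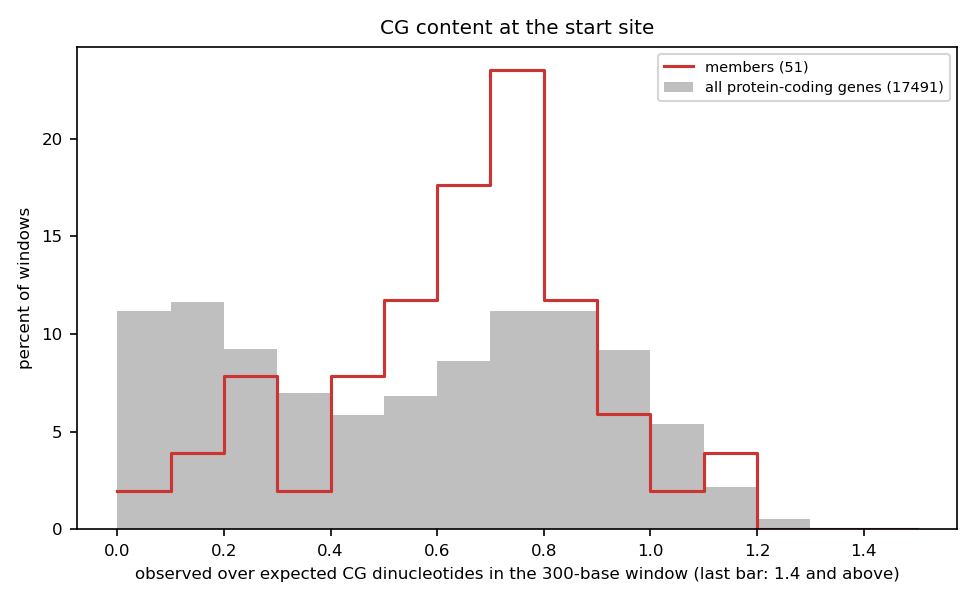
Distribution of the ratio of observed to expected CG dinucleotides in the 300-base windows of 51 members (red line) and 17491 protein-coding genes (grey bars), as the percent of windows in bins of 0.1. Member windows gather above 0.5 (median 0.689), while windows of all genes form a low and a high group (median 0.577).

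Most members were silent or barely transcribed in spermatogonia, and detection differed strongly between library sets. A member was counted as detected in a group when it reached 1 TPM in both libraries. In WT, 27 of 71 members were detected in Aundiff and 25 in Adiff (38.0% and 35.2%, against 57.2% and 56.5% of 21897 protein-coding genes). At 2 mo, 6 members were detected in PRC1ctrl and 9 in the libraries labelled PRC1cKO (8.5% and 12.7%, against 45.3% and 46.6% of protein-coding genes). After Win18446 the numbers were 31 and 35 (43.7% and 49.3%, against 61.1% and 59.7%). The summed TPM of all members was 27.8 to 62.7 in the 2 mo libraries and 161 to 357 in the other 8, without overlap. The same 2 mo libraries also had the fewest genes at 1 TPM or more, 12422 to 13986 against 14796 to 16599, and the largest mitochondrial share of TPM, 12.5% to 16.7% against 4.28% to 6.69%. The part of these properties in the low member levels was not tested.

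**Figure D2:**
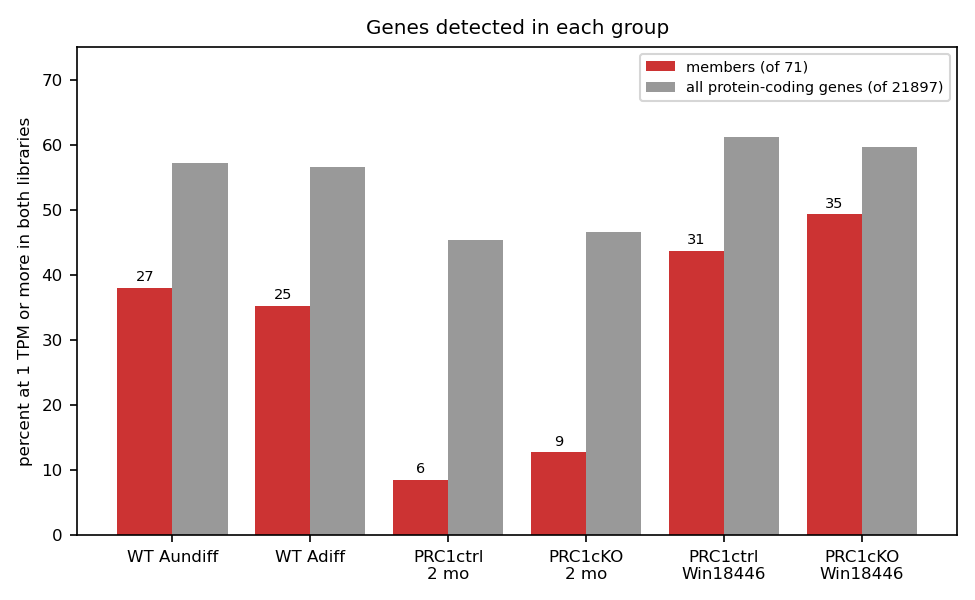
Percent of members (red) and of all protein-coding genes (grey) at 1 TPM or more in both libraries of each group, with the number of members above the red bars. Members lie below protein-coding genes in all 6 groups, and the gap is widest in the 2 mo groups, where 6 and 9 members were detected.

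Of the 71 members, 22 stayed under 1 TPM in all 12 libraries, and 1 of them, *Tbx10*, was at 0 throughout. These included *Pax1*, *Pax2*, *Pax4*, *Pax5* and *Pax9*, *Nkx2-1*, *Nkx2-2*, *Nkx2-9*, *Nkx3-2* and *Nkx6-1*, *Tbx5*, *Tbx18* and *Tbx19*, *Lhx4* and *Lhx9*, *Six3* and *Six6*, *Dlx5*, *Gata5*, *Irx5* and *Msx3*. At the other end, 2 members were at 1 TPM or more in all 12 libraries, among them *Lhx8*, required in oocytes and in forebrain cholinergic neurons. Among members that lie near each other in the genome, some moved alike in WT, such as *Dlx1* and *Dlx2*, and some were unlike in level. *Dlx5*, 18.8 kb from *Dlx6*, was at 0 TPM in 11 libraries and at 0.10 TPM in the other, while *Dlx6* reached 2.38 TPM. *Tbx5*, 162.0 kb from *Tbx3*, was at 0 to 0.14 TPM, while *Tbx3* reached 16.2 TPM.

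**Figure D3:**
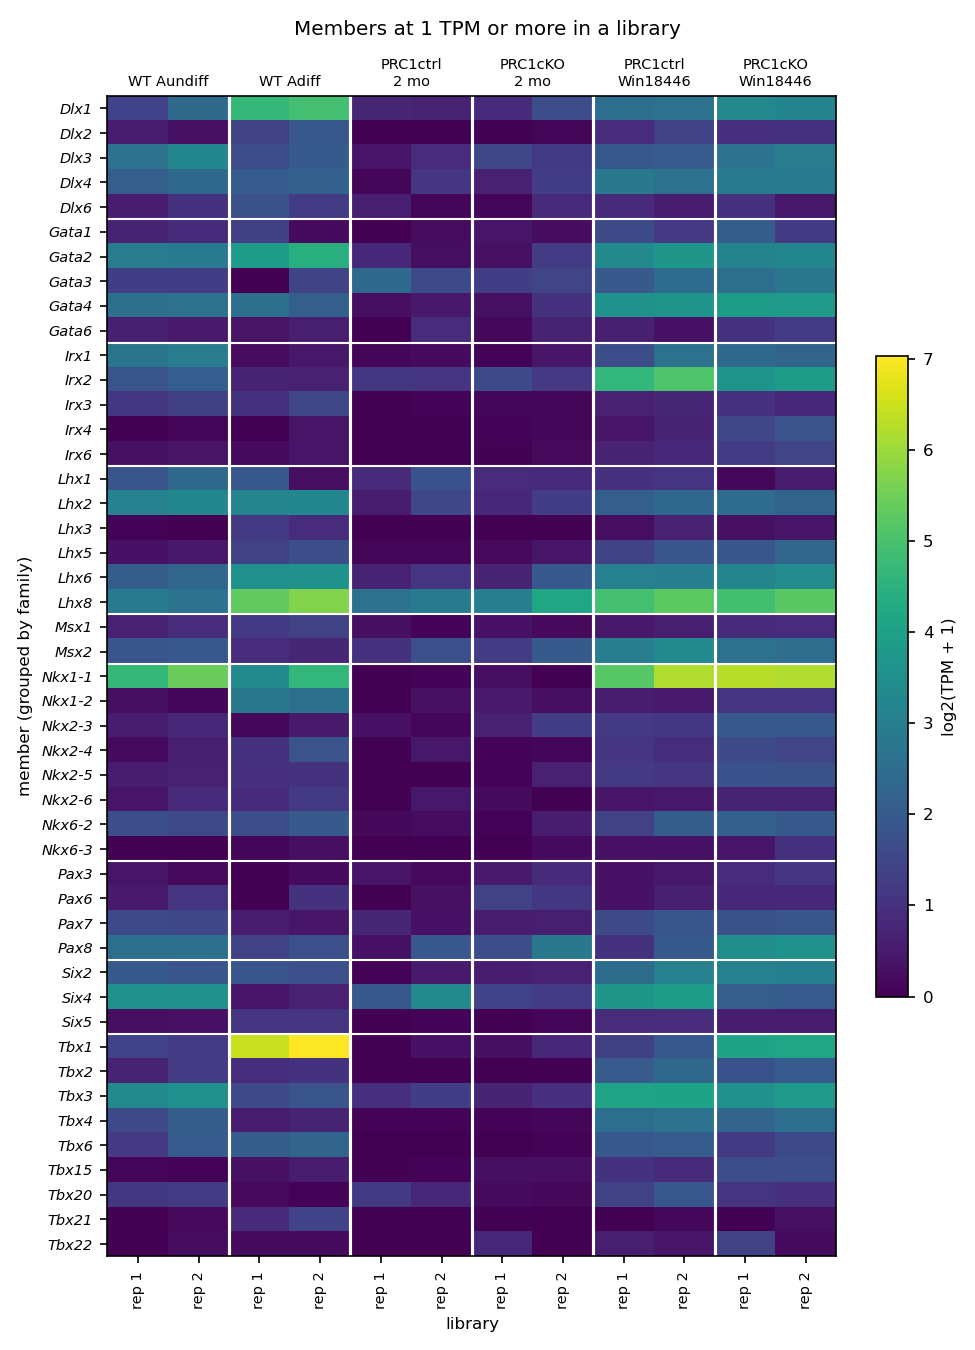
Heat map of log2(TPM + 1) for 47 of the 49 members that reached 1 TPM in a library (rows, grouped by family) in the 12 libraries (columns, 6 groups of 2). *Tbx1* is brightest in WT Adiff, *Nkx1-1* and *Lhx8* are bright in WT and Win18446 libraries, and most rows are dark in the 4 libraries at 2 mo.

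The members at the highest levels were few. *Nkx1-1* was at 24.9 and 42.2 TPM in WT Aundiff, 9.27 and 24.3 TPM in WT Adiff, 36.0 and 72.3 TPM in PRC1ctrl after Win18446 and 76.4 and 72.5 TPM in the libraries labelled PRC1cKO after Win18446, but at 0 to 0.19 TPM in the 4 libraries at 2 mo. The gene therefore lay far lower at 2 mo than in the other libraries. *Lhx2*, which acts in eye and hair follicle development, was at 7.69 and 8.78 TPM in WT Aundiff and 8.23 and 8.78 TPM in WT Adiff, at 0.48 to 1.81 TPM at 2 mo and at 3.38 to 4.45 TPM after Win18446. *Gata4*, a factor of heart and of somatic cells of the gonad, was at 3.34 to 5.15 TPM in WT, 0.23 to 1.06 TPM at 2 mo and 11.3 to 13.3 TPM after Win18446. *Six2*, known from nephron progenitors, was at 2.28 to 3.00 TPM in WT, 0.05 to 0.56 TPM at 2 mo and 4.58 to 7.45 TPM after Win18446, and *Dlx4* at 3.11 to 4.18 TPM, 0.09 to 1.43 TPM and 5.10 to 6.59 TPM in the same sets. *Gata3*, which directs T cell fate, was at 0 to 1.71 TPM in WT, 1.47 to 4.26 TPM at 2 mo and 2.89 to 6.03 TPM after Win18446, and was thus not lower at 2 mo than in WT. Beside the *Gata4* levels, the summed TPM of 10 Sertoli cell markers was 35.4 to 63.7 in WT, 30.4 to 71.4 at 2 mo and 126 to 238 after Win18446. That of 7 Leydig cell markers was 10.8 to 45.0 in WT, 1.35 to 63.7 at 2 mo and 23.8 to 428 after Win18446. The part of such cells in the *Gata4* levels was not tested, and in sorted pools fewer cells of a type and less RNA per cell cannot be told apart.

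The first comparison asked which members differ between undifferentiated and differentiating spermatogonia of WT mice. *Tbx1*, a T-box gene of the pharyngeal arches and cardiac outflow tract, rose from near silence to over 85 TPM, and *Dlx1*, *Lhx8* and *Nkx1-2* rose with it, while *Six4*, *Irx1* and *Tbx3* fell. Genes were tested with limma on log2(TPM + 1), on genes at 1 TPM or more in at least 2 of the 4 libraries, and a call needed a Benjamini-Hochberg adjusted p under 0.05 with a log2 fold change beyond 1 in size. Of 71 members, 36 could be tested, and 8 rose and 11 fell in Adiff. Of these, *Nkx1-2*, *Dlx2* and *Lhx5* passed the filter through Adiff alone, the group where they were higher. *Six4*, *Irx1*, *Irx2*, *Tbx4*, *Tbx20*, *Msx2* and *Pax7* passed it through Aundiff alone. Without the filter on low values, 6 members were called higher and 5 lower. Over all 15470 genes tested, 11.1% were called higher and 9.24% lower. Over all 71 members, whether tested or not, 36 were higher, 31 lower and 4 equal, with a median log2 difference of 0.02, beside 0.04 over all 28455 genes with a TPM above 0. By detection, 6 of the 41 members under 1 TPM in both Aundiff libraries reached it in both Adiff libraries (14.6%, against 1.36% of all such genes), and 7 of the 27 detected in Aundiff were under 1 TPM in both Adiff libraries (25.9%, against 4.29%). All genes include the many that no library detects. Of 12 markers of undifferentiated spermatogonia, 11 were called lower in Adiff (1079 and 1220 against 308 and 348 TPM in sum), and of 8 markers of differentiating spermatogonia, which include the sorting marker *Kit*, 7 were called higher (548 and 598 against 2220 and 2312 TPM). The 8 spermatid markers summed to 802 and 884 TPM against 551 and 737 TPM, none called, and the part of other cells in the member differences was not tested.

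*Tbx1* (chr16:18580979-18590671) was at 1.66 and 1.34 TPM in WT Aundiff and at 85.0 and 130 TPM in WT Adiff. The groups did not overlap, and the log2 fold change was 5.41 (SE 0.24, adjusted p = 0.000221). *Dlx1*, which acts with *Dlx2* in forebrain interneurons, was at 1.69 and 4.39 TPM in Aundiff and 24.6 and 29.6 TPM in Adiff (log2 fold change 2.88, SE 0.35, adjusted p = 0.00259). *Dlx2*, its neighbour at 18.6 kb, was at 0.47 and 0.25 TPM against 1.56 and 2.74 TPM (log2 fold change 1.19, SE 0.32, adjusted p = 0.0280). Both Dlx genes were higher in each Adiff library than in any Aundiff library, and 6.2% of the exonic bases of *Dlx1* overlap *Dlx1as* on the other strand.

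Of the LIM-homeodomain genes, *Lhx8* was at 6.33 and 5.41 TPM in Aundiff and 38.6 and 50.5 TPM in Adiff (log2 fold change 2.72, SE 0.20, adjusted p = 0.000938). *Lhx6*, of cortical interneurons, was at 3.19 and 3.97 TPM against 10.5 and 11.3 TPM (log2 fold change 1.38, SE 0.22, adjusted p = 0.00575). *Lhx5*, of the embryonic forebrain, was at 0.28 and 0.36 TPM against 1.57 and 2.22 TPM (log2 fold change 1.12, SE 0.29, adjusted p = 0.0247). All 3 were separated between the groups, while *Lhx2* was not called. Outside the Dlx and Lhx families, *Nkx1-2*, expressed in the tail bud of the embryo, was at 0.23 and 0.06 TPM against 6.03 and 5.01 TPM (log2 fold change 2.51, SE 0.27, adjusted p = 0.00195). *Gata2*, a regulator of blood stem cells, was at 6.77 and 6.64 TPM against 13.8 and 20.2 TPM (log2 fold change 1.20, SE 0.23, adjusted p = 0.0105). Neither gene had overlapping groups, and 16.6% of the exonic bases of *Nkx1-2* lie in another gene on the other strand.

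The sine oculis and Irx families held the largest falls, those of *Six4* and *Irx1*. *Six4* (chr12:73099609-73113456), which acts with EYA cofactors in muscle, ear and kidney, was at 11.2 and 11.2 TPM in Aundiff and 0.34 and 0.55 TPM in Adiff (log2 fold change -3.09, SE 0.24, adjusted p = 0.00107). Both Adiff libraries lay below both Aundiff libraries. *Irx1* was at 5.66 and 6.68 TPM against 0.17 and 0.36 TPM (log2 fold change -2.50, SE 0.27, adjusted p = 0.00191). *Irx2* (chr13:72628820-72634198), like *Irx1* a patterning gene of the Iroquois class, was at 2.54 and 3.25 TPM against 0.58 and 0.56 TPM (log2 fold change -1.30, SE 0.27, adjusted p = 0.0131). The other Irx genes were at 1.80 TPM or less in all WT libraries.

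In the T-box family, *Tbx3*, of limb and cardiac conduction system, was at 9.37 and 10.7 TPM in Aundiff and 1.93 and 2.57 TPM in Adiff (log2 fold change -1.77, SE 0.24, adjusted p = 0.00353). *Tbx4*, of the hindlimb, was at 1.91 and 3.24 TPM against 0.46 and 0.60 TPM (log2 fold change -1.20, SE 0.31, adjusted p = 0.0250). *Tbx20*, of the heart, was at 1.22 and 1.38 TPM against 0.14 and 0.05 TPM (log2 fold change -1.07, SE 0.28, adjusted p = 0.0272). These 3 fell while *Tbx1* rose, so that the family did not move one way. Of the remaining falls, *Dlx3*, of placenta, tooth and hair, was at 5.29 and 8.44 TPM against 2.19 and 2.95 TPM (log2 fold change -1.12, adjusted p = 0.0271). *Pax7*, of muscle satellite cells, was at 1.98 and 1.90 TPM against 0.44 and 0.35 TPM (log2 fold change -1.08, adjusted p = 0.0236). *Msx2*, of skull and limb, was at 2.64 and 2.74 TPM against 0.86 and 0.70 TPM (log2 fold change -1.05, adjusted p = 0.0230). *Pax8* (chr2:24420560-24475599), of thyroid and kidney, was at 4.84 and 4.99 TPM against 1.59 and 2.28 TPM (log2 fold change -1.02, SE 0.26, adjusted p = 0.0240), and 6.1% of its exonic bases lie in another gene on the other strand. In each of these 4 genes both Adiff libraries lay below both Aundiff libraries.

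The calls of *Tbx1*, *Tbx3*, *Lhx6*, *Lhx8* and *Dlx1* held when each of the 4 libraries was left out in turn. Without Aundiff replicate 1 or replicate 2, 7 of the 11 lower members, *Six4*, *Irx1*, *Irx2*, *Tbx4*, *Tbx20*, *Msx2* and *Pax7*, no longer had 2 libraries at 1 TPM and could not be tested, and 3 or 1 members were called lower. *Nkx1-2*, *Dlx2* and *Lhx5* could not be tested without either Adiff library for the same reason. Among those still tested, *Dlx3* (log2 fold change -0.83) lost the call without Aundiff replicate 2, and *Dlx3* also without Adiff replicate 1 (-0.96). *Gata2* (log2 fold change 0.95), *Msx2* (-0.99), *Pax7* (adjusted p = 0.0625) and *Tbx20* (adjusted p = 0.0886) lost it without Adiff replicate 2, and *Tbx20* (adjusted p = 0.0533) and *Pax8* (log2 fold change -0.85) without Adiff replicate 1. Without Aundiff replicate 1 or 2, the adjusted p was 0.105 and 0.108 for *Pax8*, 0.0797 and 0.119 for *Dlx2*, and 0.112 and 0.0873 for *Lhx5*. A median-of-ratios scaling moved the median log2 fold change over all genes tested from 0.15 to -0.01, and the 19 member calls were kept under it.

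The second comparison set the libraries labelled PRC1cKO against PRC1ctrl at 2 mo. Of 71 members, 13 could be tested, and none was called with limma without the replicate number as a block. Of the 13, 1 had an unadjusted p under 0.05 by limma. This was *Pax6*, of the eye and pancreas, with 0.01 and 0.25 TPM in PRC1ctrl and 1.56 and 1.21 TPM in PRC1cKO (log2 fold change 1.08, SE 0.30, adjusted p = 0.170). *Pax6* passed the filter on low values only through the PRC1cKO libraries, the group where it was higher. Over 13953 genes, 0.222% were called higher and 1.94% lower. *Six4* was at 2.80 and 9.07 TPM in PRC1ctrl and at 1.65 and 1.35 TPM in PRC1cKO, with groups that did not overlap but a wide spread in the controls (log2 fold change -1.31, SE 0.58, adjusted p = 0.393). *Pax8* was at 0.28 and 2.74 TPM against 2.20 and 6.10 TPM, with overlapping groups (log2 fold change 1.12, SE 0.69, adjusted p = 0.542). *Lhx8* was at 5.27 and 6.39 TPM against 7.08 and 16.7 TPM (log2 fold change 0.81, SE 0.52, adjusted p = 0.554). *Irx2*, at 1.22 and 1.10 TPM against 1.97 and 1.24 TPM, gave a log2 fold change of 0.26 (SE 0.36). *Tbx1*, at 0.02 and 0.26 TPM against 0.23 and 0.72 TPM, did not reach 1 TPM in any of these libraries and was not tested. *Irx4* was at 0 TPM in both PRC1ctrl libraries and at 0.05 and 0.06 TPM in PRC1cKO. With a median SE of 0.42 over all genes, against 0.17 after Win18446, differences of the size seen after Win18446 were less well resolved here.

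Below the test level, more members at 2 mo lay higher under the label PRC1cKO. Over all 71 members, 52 were higher, 14 lower and 5 equal, with a median log2 difference of 0.07, beside 18616 higher, 13320 lower and a median of 0.04 over 32181 genes. Under median-of-ratios scaling, 45 members were higher and 21 lower (median 0.03), beside 15391 and 16790 of all genes (median -0.01). The members newly detected were *Dlx3* and *Pax6*, 2 of the 57 that were under 1 TPM in both PRC1ctrl libraries (3.51%, against 1.23% of all such genes), and none of 6 was lost (against 7.76% of all genes detected in PRC1ctrl). Both *Dlx3* and *Pax6* passed the filter for testing only through PRC1cKO. The genes under 1 TPM include many that no library detects and, unlike the members, many that are not protein-coding. In these libraries the summed TPM of 8 spermatid markers was 772 and 1809 in PRC1ctrl and 64.7 and 58.8 in PRC1cKO, with 6 called lower. That of 7 Leydig cell markers was 1.39 and 1.35 against 22.7 and 63.7, with 1 called higher. The 12 markers of undifferentiated spermatogonia summed to 911 and 1191 against 422 and 514 TPM, and only 1, *Nanos3*, was called lower. The largest terms of that sum were *Sall4* (517 and 704 against 266 and 314 TPM) and *Nanos3* (286 and 349 against 92.4 and 80.6 TPM). *Cdh1*, *Etv5*, *Gfra1*, *Ret* and *Zbtb16* had positive log2 fold changes, none called. The 8 markers of differentiating spermatogonia summed to 249 and 276 TPM in PRC1ctrl and to 596 and 698 TPM in PRC1cKO, and none was called. The part of these cell types in the member levels was not tested.

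The third comparison set the same labels against each other after Win18446, which blocks the retinoic acid signal for differentiation. *Tbx1*, *Pax8* and *Irx4* rose in the libraries labelled PRC1cKO, and *Six4* and *Irx2* fell. In all, 3 rises and 3 falls were called among 38 members tested, while 1.27% of 16521 genes were called higher and 10.9% lower. Under median-of-ratios scaling, which moved the median over all tested genes from -0.19 to 0.03, 4 members rose and 2 fell, with *Dlx3* (log2 fold change 1.01) added and *Irx2* (-0.88) lost, while 2.29% of 16443 genes were called higher and 7.53% lower. At an adjusted p under 0.05 regardless of fold, 11 members were higher and 5 lower, beside 5.87% and 26.7% of all genes. With median-of-ratios scaling, 2539 of 16443 genes were higher and 2910 lower at that adjusted p, so the all-gene shares depend on the scaling. The member counts at that adjusted p under the scaling are not reported here.

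*Tbx1* was at 1.52 and 2.72 TPM in PRC1ctrl and at 15.6 and 16.5 TPM in the libraries labelled PRC1cKO. Both libraries of the second group lay above both of the first, and the log2 fold change was 2.48 (SE 0.22, adjusted p = 0.00178). *Pax8* was at 1.06 and 2.95 TPM against 10.1 and 11.0 TPM (log2 fold change 2.01, SE 0.31, adjusted p = 0.00643). *Irx4* (chr13:73260479-73269608), a gene of the cardiac ventricle, was at 0.34 and 0.62 TPM against 1.86 and 2.48 TPM (log2 fold change 1.10, SE 0.20, adjusted p = 0.00855). All 3 were separated between the labels, with *Tbx1* reaching the highest level and *Irx4* the lowest. *Irx4* passed the filter on low values only through the PRC1cKO libraries, the group where it was higher.

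*Six4* was at 12.2 and 13.6 TPM in PRC1ctrl and 3.33 and 3.16 TPM in PRC1cKO (log2 fold change -1.71, SE 0.16, adjusted p = 0.00188). *Irx2* was at 24.1 and 32.8 TPM against 11.5 and 13.6 TPM (log2 fold change -1.11, SE 0.18, adjusted p = 0.00634). The groups did not overlap in either of them, and *Irx2* under the label PRC1cKO still stood above its 2.54 and 3.25 TPM in WT Aundiff. The calls of *Tbx1*, *Pax8* and *Six4* held without each library in turn. That of *Irx2* was lost without PRC1cKO replicate 1 (adjusted p = 0.0544) or PRC1ctrl replicate 2 (-0.89), and that of *Irx4* without PRC1ctrl replicate 1 (0.96), while *Irx4* could not be tested without either PRC1cKO library.

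**Figure D4:**
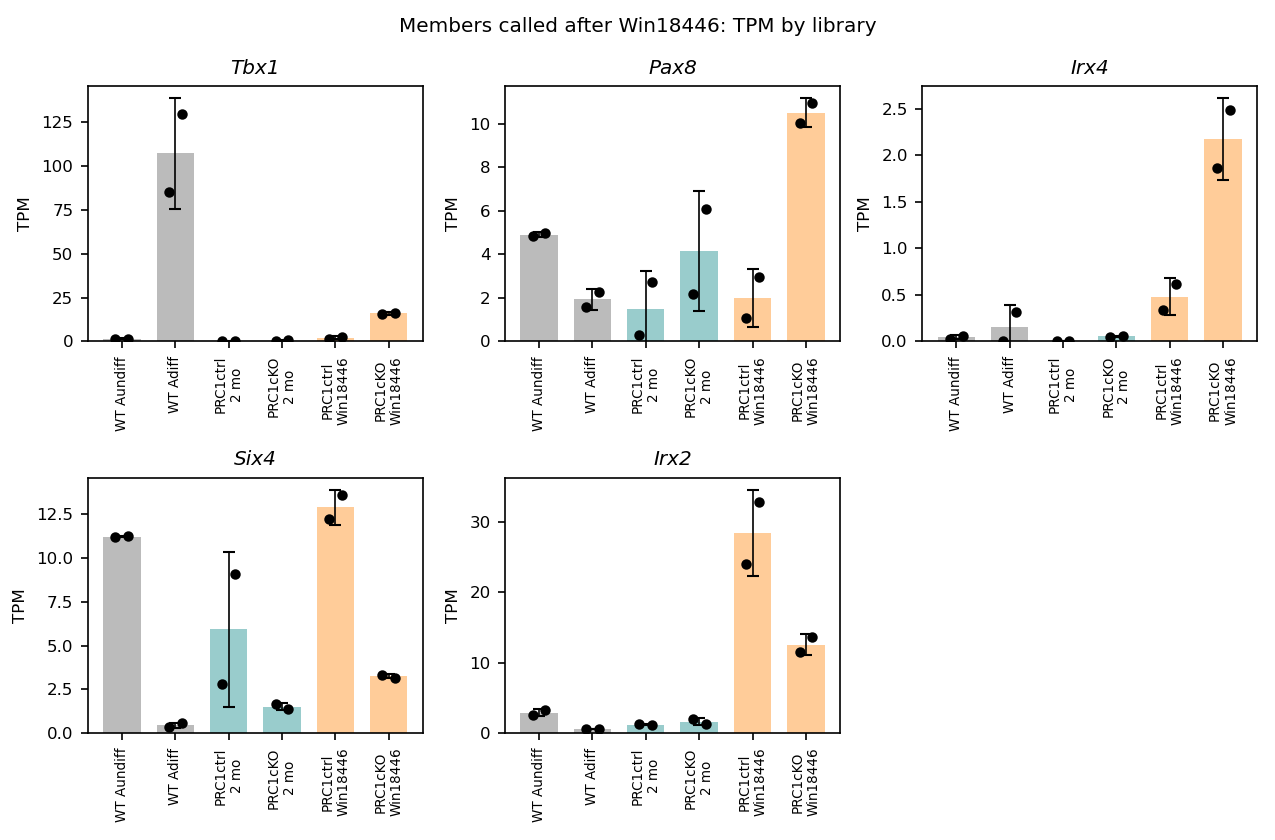
TPM of 5 of the 6 members called after Win18446 in each library (points), with the group mean (bars from 0) and SD (error bars, n = 2). *Tbx1* is highest in WT Adiff, *Pax8* and *Irx4* are highest in the libraries labelled PRC1cKO after Win18446, and *Six4* falls in WT Adiff and again in the PRC1cKO libraries.

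The other members that passed the adjusted p lay below the fold threshold. Higher in PRC1cKO were *Dlx3* (2.82 and 3.15 TPM against 5.34 and 6.77 TPM, log2 fold change 0.82, adjusted p = 0.0168), *Nkx2-3* (0.78), *Tbx15* (0.73), *Dlx1* (0.66), *Gata6* (0.65), *Irx6* (0.61), *Nkx2-5* (0.61) and *Nkx1-2* (0.54), and lower were *Lhx1* (-0.68) and *Msx2* (-0.59), all by limma on the log2 scale. *Nkx2-3*, of gut and spleen, was at 1.31 and 1.21 TPM against 2.89 and 2.86 TPM, and *Tbx15*, of skeleton and skin, at 1.06 and 0.79 TPM against 2.17 and 2.19 TPM. *Lhx8*, in contrast to its rise in WT Adiff, was not called, at 29.3 and 37.1 TPM against 28.7 and 36.6 TPM (log2 fold change -0.02, SE 0.17, adjusted p = 0.930, and 0.21 under median-of-ratios scaling). *Gata6*, *Irx4*, *Irx6* and *Nkx1-2* were newly detected, 4 of the 37 members under 1 TPM in both PRC1ctrl libraries (10.8%, against 0.655% of all such genes), and *Lhx1* was lost, 1 of 31 (3.23%, against 7.51%). All such genes include many that no library detects and, unlike the members, many that are not protein-coding. Those 4 passed the filter for testing only through PRC1cKO, and *Lhx1* only through PRC1ctrl.

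Taken over all 71 members, 48 were higher and 22 lower under the label PRC1cKO after Win18446, with a median log2 difference of 0.13. Over all 32489 genes with a TPM above 0, 10414 were higher and 21990 lower, with a median of -0.10. With median-of-ratios scaling, 51 members were higher and 19 lower (median 0.22), beside 14111 and 18378 of all genes (median -0.03). *Six4* and *Irx2*, which fell, were thus among the 22 members that lay lower. The 8 spermatid markers summed to 142 and 130 TPM in PRC1ctrl and 26.1 and 23.7 TPM in PRC1cKO, with 5 of 8 called lower and *Acrv1* and *Prm2* at 0 in both PRC1cKO libraries. Of 12 markers of undifferentiated spermatogonia (1015 and 1127 against 775 and 881 TPM), 1, *Neurog3*, was called lower, and of 8 markers of differentiating spermatogonia (638 and 704 against 811 and 894 TPM), 3, *Kit*, *Esx1* and *Dmrtb1*, were called higher. The Leydig cell markers summed to 428 and 85.4 TPM against 84.1 and 23.8 TPM, none of 7 called, and the erythroid markers to 8.88 and 8.64 against 0.33 and 0.55 TPM, with 3 of 6 called lower. Their part in the member differences was not tested.

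The difference between the labels was itself compared with and without Win18446 in a model over the 8 libraries of the PRC1 mice. Of 39 members tested, 1 was called, *Tbx1*, whose log2 fold change between the labels was larger after Win18446 by 2.12 (SE 0.40, adjusted p = 0.0280), while 2.76% of 18354 genes were called higher in this test. The call of *Tbx1* was lost without any 1 of the 8 libraries (adjusted p 0.0513 to 0.129, with a difference of 1.84 to 2.40), with a pseudocount of 0.1 (difference 1.59, adjusted p = 0.396) and without the filter on low values (adjusted p = 0.0570). The near-zero levels of *Tbx1* at 2 mo, in libraries that detected few members, stand beside this difference, and treatment and kit cannot be told apart.

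Members called in WT and after Win18446 were set side by side, since these comparisons share no library. There were 31 members tested in both. Of the 19 called in WT and the 6 called after Win18446, 4 were called in the same direction in both, among them *Tbx1* (log2 fold changes 5.41 and 2.48), *Six4* (-3.09 and -1.71) and *Irx2* (-1.30 and -1.11). *Pax8* was called in opposite directions (-1.02 and 2.01), lower in WT Adiff than in WT Aundiff but higher in the libraries labelled PRC1cKO. *Irx4* was too low to be tested in WT. Those 4 were 21.1% of the 19 WT calls and 80% of the 5 Win18446 calls among members tested in both. Over the 14499 genes tested in both, 180 were called in the same direction, 6.06% of 2970 WT calls and 13.1% of 1376 Win18446 calls, and 132 in opposite directions. The number of members behind these shares is small, and no test of the shares was run. Of the shared calls named, *Six4* and *Irx2* passed the WT filter through Aundiff alone, the group where they were higher. The *Irx2* call after Win18446 was lost under median-of-ratios scaling. The other 14 WT calls were not called after Win18446, among them *Lhx8* (2.72 and -0.02), *Irx1* (-2.50 and 0.19) and *Dlx3* (-1.12 and 0.82). Across all 71 members, without a filter, Pearson's r of the 2 log2 differences was 0.48, and 0.31 without *Tbx1*, beside 0.07 over all 55385 genes, as a description across genes that are not independent replicates. The 55385 genes include many that no library detects and, unlike the members, many that are not protein-coding. In level, *Tbx1* in the libraries labelled PRC1cKO after Win18446 (15.6 and 16.5 TPM) lay between WT Aundiff (1.34 and 1.66 TPM) and WT Adiff (85.0 and 130 TPM), and *Six4* (3.16 and 3.33 TPM) likewise between 11.2 and 0.34 to 0.55 TPM.

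**Figure D5:**
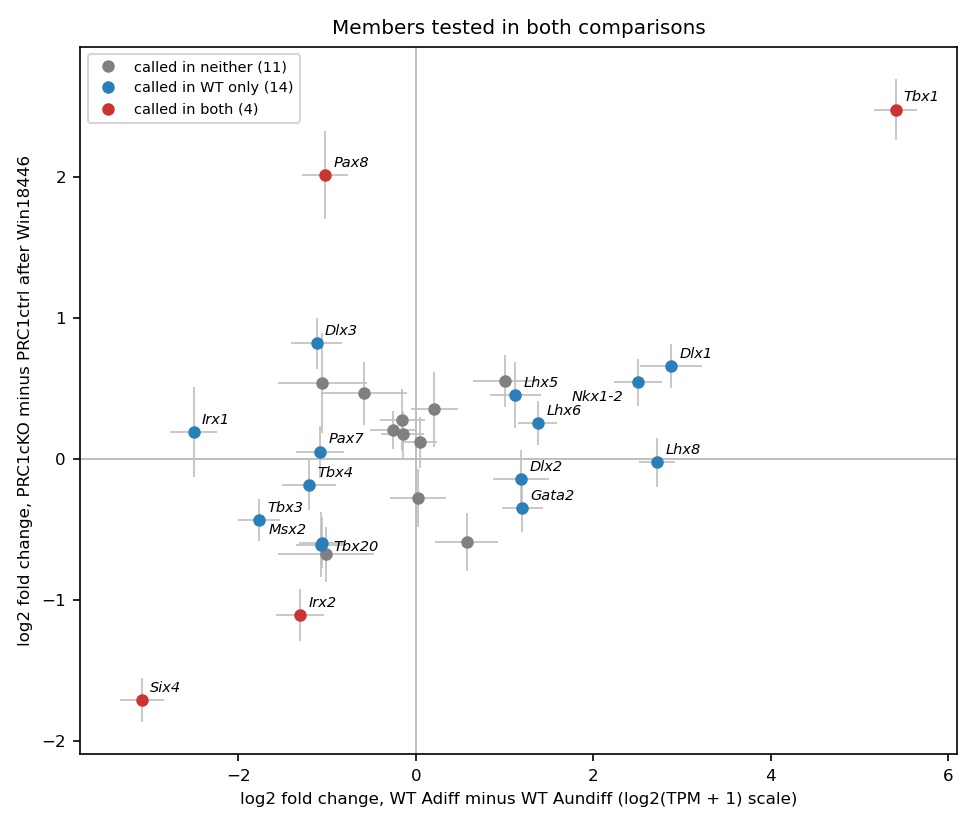
Log2 fold changes of 29 of the 31 members tested in both comparisons, WT Adiff minus WT Aundiff (x axis) and PRC1cKO minus PRC1ctrl after Win18446 (y axis), on the log2(TPM + 1) scale with SE as error bars. *Tbx1* lies high on both axes, *Six4* and *Irx2* low on both, and *Pax8* is lower in WT Adiff and higher in PRC1cKO.

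These factors act with cofactors, such as EYA proteins for sine oculis factors, LDB and LMO proteins for LHX and GATA factors, FOG proteins for GATA factors and MEIS proteins for several homeodomain factors. Of 29 listed cofactor genes, 23 could be tested in WT, and 3 rose and 1 fell in Adiff. *Lmo1* was at 31.2 and 48.1 TPM in Aundiff and 112 and 146 TPM in Adiff (log2 fold change 1.70, SE 0.24, adjusted p = 0.00392). *Zfpm1*, which encodes FOG1, a partner of GATA factors, was at 9.05 and 10.2 TPM against 24.5 and 34.9 TPM (log2 fold change 1.51), and *Meis3* at 0 and 0.13 TPM against 1.41 and 2.14 TPM (log2 fold change 1.37). None of 20 tested was called at 2 mo. After Win18446, 1 of 24 was called, *Rlim*, whose product is a ubiquitin ligase for LIM cofactors, at 21.2 and 24.1 TPM in PRC1ctrl and 10.2 and 10.7 TPM in PRC1cKO (log2 fold change -1.04, SE 0.14, adjusted p = 0.00367). *Ldb1*, the common partner of LIM factors, was at 156 to 252 TPM in the WT and Win18446 libraries and at 0.73 to 2.97 TPM at 2 mo. Low 2 mo values were thus not restricted to the families themselves. The 29 cofactors summed to 171 to 353 TPM at 2 mo and to 1103 to 1538 TPM in the other libraries. Some were not low at 2 mo, such as *Rlim*, at 17.9 to 41.2 TPM there and 9.19 to 24.1 TPM in the other libraries.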

How the data were processed

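The authors used RSEM 1.3.3 to make the deposited TPM values of 55385 genes in 12 libraries; per the submitters' processing notes, Trim Galore 0.6.6, HISAT2 2.2.1, SAMtools 1.9, HTSeq 1.6.0 and DESeq2 1.28.1 were also used. Counts were not used here, so depth is unknown, no counting error is given, and the count test of the study was not run. TPM is a share of a library, and a rise in some genes lowers all others. All 12 columns were matched to libraries by their labels, and coordinates are those of GRCm38.

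Values were transformed to log2(TPM + 1), with a pseudocount of 1, so that folds of low genes are understated. The two-sided tests came from limma 3.58.1, run in R 4.3.3 with its trend and robust options, for genes at 1 TPM or more in at least 2 libraries compared. Benjamini-Hochberg adjustment covered every gene tested. The interaction of label and treatment used 8 libraries. The procedure was tested on simulated data. Exon overlap and start windows used gencode vM21 and RefSeq (GRCm38.p6), and tables and figures Python 3.11.15, pandas 2.3.3, numpy 2.4.6 and matplotlib 3.10.9.

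Members were taken by name. Values in every library are given for members called in any comparison, for *Tbx1*, and for members with a group mean of at least 5 TPM, and for up to 3 called cofactors per direction. Ranges are given for some of these, and some genes that the counts include are not reported here. The members and lists were chosen with earlier results of these data known. Alternatives were a pseudocount of 0.1, no filter, a filter at a mean of 5 TPM, median-of-ratios scaling, the replicate number as a block, and leaving out each library. Replicates are independent pools of sorted cells.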

Additional observations from a re-analysis of the deposited data

Results flagged for a closer look

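The difference of *Tbx1* between the labels PRC1cKO and PRC1ctrl differed with and without Win18446 by 2.12 on the log2(TPM + 1) scale (SE 0.40, adjusted p = 0.0280 by limma), and was higher in both PRC1cKO libraries than in both PRC1ctrl libraries after treatment (15.6 and 16.5 against 1.52 and 2.72 TPM). It is listed because this adjusted p was under the threshold. At 2 mo the gene was at 0.02 to 0.72 TPM in all 4 libraries and too low for a test of its own, so it entered the model of 8 libraries through those after Win18446. The adjusted p was 0.396 with a pseudocount of 0.1, 0.0570 without the filter on low values and 0.0513 to 0.129 when each of the 8 libraries was left out, so that the call was lost in all of these. The treatment and the library kit cannot be told apart.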

How the results depend on the processing

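Members called higher in WT Adiff numbered 5 at a mean TPM of at least 5 and 4 to 6 when a library was left out, and members called lower 5 without the filter on low values, 2 at a mean TPM of at least 5 and 1 to 10 when a library was left out. After Win18446, 5 members were called higher with a pseudocount of 0.1, and 1 to 3 were called lower when a library was left out. The interaction gave 0 members higher with a pseudocount of 0.1, without the filter, at a mean TPM of at least 5 and in all leave-outs (0 to 0). With median-of-ratios scaling, 1 member was newly detected and 2 no longer detected at 2 mo, and 0 no longer detected after Win18446. Over all genes tested, that scaling moved the median log2 fold change at 2 mo from 0.22 to -0.04 and that of the interaction from -0.41 to 0.14.

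The labels relate same-numbered libraries by number alone, and each is a separate pool: their deviations correlated at 0.16 (WT), 0.38 (2 mo) and 0.12 (Win18446), over 2 pairs each. With the replicate number as a block, 9 members were called higher and 12 lower in WT, 3 and 3 after Win18446, 1 higher (*Pax6*, adjusted p = 0.0127) and 1 lower (*Six4*, adjusted p = 0.0425) at 2 mo, and 1 higher and 1 lower in the interaction. At 2 mo, *Pax6* passed the filter only through the PRC1cKO libraries, where it was higher. Over all genes at 2 mo the block gave 1074 higher and 1098 lower calls, and no filter gave 0. No call of a member changed direction under the alternatives that were run. The unknown depth limits what can be said of members near 0 TPM. The cause of these changes was not tested.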
